A study of Rattus norvegicus with 6 samples.

Results

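The integrins, selectins and leukocyte adhesion molecules described here are 33 genes, namely 26 integrin subunits, 4 adhesion molecules of the immunoglobulin superfamily, the endothelial selectin genes Sele and Selp, and the selectin ligand gene Selplg. They were taken by symbol from a table of read counts, and all 33 were found, each on 1 row, among 19780 gene symbols. The counts come from bulk RNA sequencing of pancreas from male wild type Sprague-Dawley rats aged 8 weeks, with 3 samples of acute pancreatitis (AP) and 3 control samples. AP was induced by intraperitoneal L-arginine, an amino acid that injures the exocrine pancreas at high dose, and controls received saline. The labels of the samples state 5 mg/kg for 36 hours, but the series description states 2 doses of 2.5 g/kg and sampling at 48 hours, and these are not reconciled. Each library holds RNA of a whole tissue sample, so fewer cells of a type and less RNA per cell cannot be told apart.

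Leukocytes leave the blood in steps. Selectins on activated endothelium and platelets bind carbohydrate ligands such as P-selectin glycoprotein ligand, encoded by Selplg, and slow the cell. Integrins, each made of an α and a β subunit, then bind immunoglobulin-like molecules on the vessel wall such as ICAM-1 and VCAM-1 and hold it. Other integrins are receptors for collagens, for laminins, or for matrix proteins with an RGD motif, and anchor epithelial, stromal and migrating cells. In pancreas, integrins of the laminin-binding kind attach exocrine cells to the basement membrane.

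Control libraries held between 14453584 and 18196636 counts and AP libraries between 17404247 and 18961353. The 6 acinar marker genes found in the table (such as Prss1 and Cpa1) took 38.7% to 40.4% of the named counts in controls, as befits pancreas, and 0.658%, 0.686% and 4.97% in AP replicates 1 to 3, so AP replicate 3 stood apart. Because these few genes filled the control libraries, scaling matters: trimmed mean of M values (TMM) scaling multiplied library sizes by 0.47 in controls and 2.13 in AP on average. Values below are CPM of the TMM-scaled library size (normalised CPM), which place each gene relative to the middle of all genes, and plain CPM refers to the named counts with no such factor. Over all tested genes the median log2 fold change was 0.07 with TMM and 2.25 with library totals alone.

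In AP pancreas, the largest log2 fold changes among the tested members were those of the leukocyte genes Itgb2 (5.57), Itgam (5.4), Itgal (5.2) and Selplg (4.93). Of the RGD-binding α subunits and the β partners of αV, 5 of 8 rose. Of the laminin receptor subunits Itga3, Itga6, Itga7 and Itgb4, only Itga3 was called, and the collagen receptor subunits Itga1 and Itga10 fell. Of 32 members that passed the filter on low counts, 20 (62.5%) were called higher and 2 (6.25%) lower at an adjusted p of 0.05, by edgeR's quasi-likelihood test adjusted over all 13240 tested genes. Among all tested genes 64.6% were called, 34.1% higher and 30.5% lower. The remaining 10 tested members were not called, and Sele did not pass the filter. The median log2 fold change of the 32 was 1.7, beside 0.07 over all tested genes. The groups did not overlap in 25 of the 32 (78.1%), close to the 70.9% over all tested genes. A log2 fold change of at least 4, a size chosen after the values were seen, was reached by 8 of the 32 (25.0%) and by 4.37% of all tested genes. Summed over all 33, the members stood at 615 to 667 normalised CPM in controls and 1680 to 1760 in AP. In plain CPM every AP library exceeded every control library for 32 of the 33, with Itga10 the exception, and 31 members were called higher and 1 lower with library totals, where 88.2% of all tested genes were called higher and 4.32% lower.

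**Figure D1:**
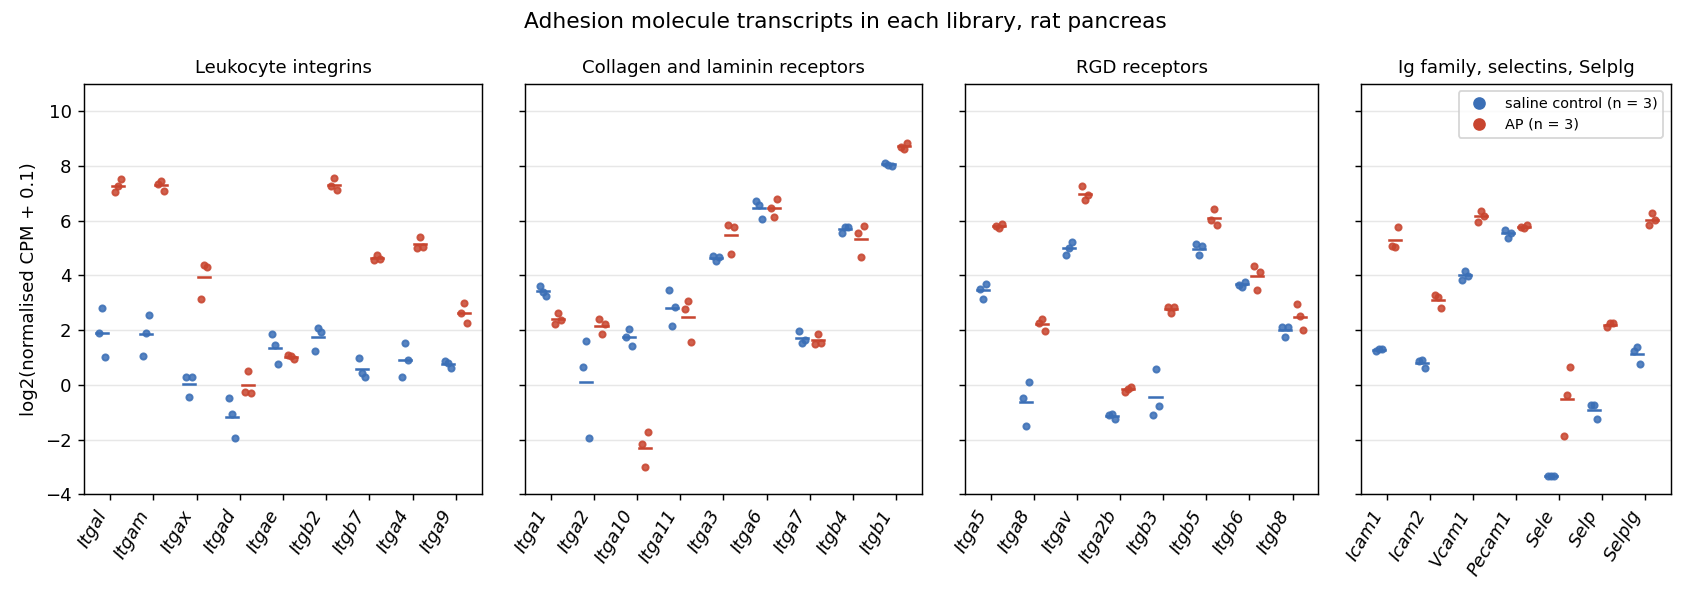
Level of each member in each library, as log2 of normalised CPM plus 0.1, with controls in blue and AP in red. Each point is 1 library and each short bar the mean of 3. AP points of Itgal, Itgam, Itgb2, Icam1 and Selplg lie far above the control points, those of Itga6, Itga7 and Itgb4 mix with them, and those of Itga10 lie below.

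The β2 integrins carry leukocyte adhesion. Itgb2 encodes the shared β2 subunit, and it stood at 2.23, 4.17 and 3.7 normalised CPM in control replicates 1 to 3 and at 155, 186 and 139 in AP replicates 1 to 3. The lowest AP library was far above the highest control. It rose 47.6-fold (log2 fold change 5.57 ± 0.234 SE, edgeR adjusted p = 8.46e-07, n = 3 per group), the largest log2 fold change of the members tested. Its partner Itgam, αM of the complement receptor of neutrophils and macrophages, read 1.99, 3.66 and 5.79 in controls and 162, 172 and 136 in AP. It rose 42.1-fold (5.4 ± 0.304, edgeR adjusted p = 2.43e-06). Itgal, αL of the lymphocyte function antigen that binds ICAM-1, read 3.6, 6.95 and 1.93 in controls and 133, 152 and 185 in AP. Its rise was 36.8-fold (5.2 ± 0.358, edgeR adjusted p = 6.18e-06), and the log2 fold change was 5.79 without control replicate 2. Controls held few reads of these genes, 12 to 55 of Itgal and 16 to 36 of Itgam per library, and AP libraries 5378 to 6295 and 4614 to 6933.

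The other α subunits of this group had far fewer reads in AP, and of these only Itgax was called. Itgax, αX of dendritic cells and some macrophages, went from 1.12, 0.632 and 1.12 to 8.58, 20.6 and 19.9 normalised CPM. It rose 17.1-fold (4.1 ± 0.453, edgeR adjusted p = 8.15e-05), and AP replicate 1 was less than any other AP library. Itgad, αD, had 5, 3 and 1 reads in controls and 30, 53 and 24 in AP and was not called (log2 fold change 1.19 ± 0.572, edgeR adjusted p = 0.0974). Itgam, Itgax and Itgad lie next to each other in the RefSeq gene table of assembly GRCr8 and are related in sequence, and the handling of reads that match several of them is unknown. Itgae, αE of lymphocytes in epithelia, read 3.48, 2.65 and 1.61 in controls and 2.02, 1.97 and 1.82 in AP, and the groups overlapped (-0.43 ± 0.337, edgeR adjusted p = 0.293). Haspin, a gene that overlaps Itgae, held 37 to 56 reads in controls and 401 to 444 in AP, and without the strand setting reads shared by both cannot be told apart.

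Itga4 and Itgb7, whose products pair as a homing receptor of lymphocytes for mucosal vessels, both rose. Itga4, which also pairs with β1 as the VCAM-1 receptor, read 1.12, 2.78 and 1.77 normalised CPM in controls and 31.8, 42.5 and 32.4 in AP, an 18.8-fold rise (4.23 ± 0.283, edgeR adjusted p = 5.49e-06). Itgb7 read 1.86, 1.26 and 1.12 in controls and 23.2, 26.4 and 23.9 in AP, a 17-fold rise (4.09 ± 0.215, edgeR adjusted p = 1.87e-06). AP libraries differed little from each other in Itgb7 and none overlapped a control. Overlapping genes complicate both: Cerkl, which overlaps Itga4, had 9 to 17 reads in controls and 799 to 920 in AP, and Znf740, which overlaps Itgb7, had 312 to 404 and 1248 to 1620. Itga9, a receptor subunit for tenascin-C and VCAM-1, rose 3.79-fold (1.92 ± 0.301, edgeR adjusted p = 0.000609).

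On the vessel side, ICAM-1 is the main counter-receptor of β2 integrins and VCAM-1 that of α4β1. Transcripts of both rose. The promoters of both genes are shown here because NF-κB binds near their start sites in human cells. NF-κB is the transcription factor best known for inducing them in inflamed endothelium, and its part in these samples was not tested. Each window runs from 250 bases before to 50 bases after the annotated start (RefSeq, GRCr8), in the direction of transcription. Itgam is given beside them as a leukocyte gene. Its window is at chr1:192089342-192089641 on the plus strand, that of Icam1 at chr8:27829595-27829894 on the plus strand and that of Vcam1 at chr2:206742734-206743033 on the minus strand. Capitals mark matches on either strand to GGNNNTTCC (an NF-κB pattern), GAGGAA (an ETS factor pattern) or TATAAA (the core promoter box).
Icam1: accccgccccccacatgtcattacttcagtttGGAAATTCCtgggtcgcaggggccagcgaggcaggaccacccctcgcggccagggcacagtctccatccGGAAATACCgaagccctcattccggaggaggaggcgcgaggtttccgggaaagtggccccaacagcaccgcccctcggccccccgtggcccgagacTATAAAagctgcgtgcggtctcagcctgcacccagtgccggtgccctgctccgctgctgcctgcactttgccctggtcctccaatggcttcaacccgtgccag
Vcam1: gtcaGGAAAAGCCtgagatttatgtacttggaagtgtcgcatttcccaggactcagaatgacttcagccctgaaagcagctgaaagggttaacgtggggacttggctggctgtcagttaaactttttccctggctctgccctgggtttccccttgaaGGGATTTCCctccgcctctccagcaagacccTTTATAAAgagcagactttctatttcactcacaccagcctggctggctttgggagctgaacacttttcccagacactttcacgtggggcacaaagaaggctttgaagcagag
Itgam: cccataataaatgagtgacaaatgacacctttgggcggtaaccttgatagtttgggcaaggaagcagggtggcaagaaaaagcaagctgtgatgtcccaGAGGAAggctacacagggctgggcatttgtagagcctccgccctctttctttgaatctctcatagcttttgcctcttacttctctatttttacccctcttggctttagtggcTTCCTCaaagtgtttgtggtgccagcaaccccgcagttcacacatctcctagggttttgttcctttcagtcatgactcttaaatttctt

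The Icam1 window held GGNNNTTCC matches beginning 218 bases (the letters there match on both strands) and 149 bases before the start and a TATAAA 53 bases before it. The Vcam1 window held GGNNNTTCC 246 and 93 bases before the start, and TATAAA on each strand in overlapping letters 62 and 60 bases before it. The Itgam window held GAGGAA, 151 and 39 bases before the start, and neither of the other patterns. Of 33469 promoters of the same length, 18.3% held GGNNNTTCC, 27.6% GAGGAA and 14.2% TATAAA. For 22 members a promoter was at hand. Of these 5 (22.7%) held GGNNNTTCC, 7 (31.8%) GAGGAA and 3 (13.6%) TATAAA, near the shares of all promoters. A match describes letters only.

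Icam1 stood at 2.23, 2.4 and 2.41 normalised CPM in controls and 33.7, 32.6 and 53.6 in AP. It rose 17-fold (log2 fold change 4.09 ± 0.261, edgeR adjusted p = 4.22e-06), with AP replicate 3 highest. Vcam1 stood at 14.2, 17.9 and 15.7 in controls and 61.3, 81.2 and 71.6 in AP, a 4.47-fold rise (2.16 ± 0.153, edgeR adjusted p = 7.03e-06). For both genes every AP library was far above every control. Icam2, a ligand of β2 integrins on resting endothelium and platelets, read 1.74, 1.77 and 1.45 in controls and 9.69, 9.06 and 6.88 in AP, a 5.13-fold rise (2.36 ± 0.261, edgeR adjusted p = 8.15e-05). Prr29, which overlaps Icam2, had 2 to 7 reads in controls and 63 to 149 in AP. Pecam1, a junctional molecule of endothelium that leukocytes cross by, read 50.5, 41.4 and 46.9 in controls and 54.7, 53.5 and 56.7 in AP. The groups did not overlap but the difference was small and not called (0.25 ± 0.113, edgeR adjusted p = 0.0838).

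Selectin transcripts were sparse. Selp, P-selectin of endothelium and platelets, had 4, 4 and 2 reads in controls and 170, 186 and 160 in AP, and rose 9.94-fold (3.31 ± 0.34, edgeR adjusted p = 5.28e-05). Sele, E-selectin of activated endothelium, had no read in any control library and 7, 27 and 50 reads in AP replicates 1 to 3. Against a floor of 3 counts over the control group this is at least 5.42-fold higher, with bounds of 3.11-fold without AP replicate 3 and 3.45-fold without control replicate 1, 3.48-fold without control replicate 2 and 3.9-fold without control replicate 3. Sele did not pass the filter on low counts, and its reads in AP differed several-fold between libraries. Selplg, the ligand that leukocytes present to selectins, went from 2.23, 2.53 and 1.61 to 56.4, 76.8 and 64.1 normalised CPM. It rose 30.5-fold (4.93 ± 0.207, edgeR adjusted p = 8.46e-07), and no AP library came near a control.

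**Figure D2:**
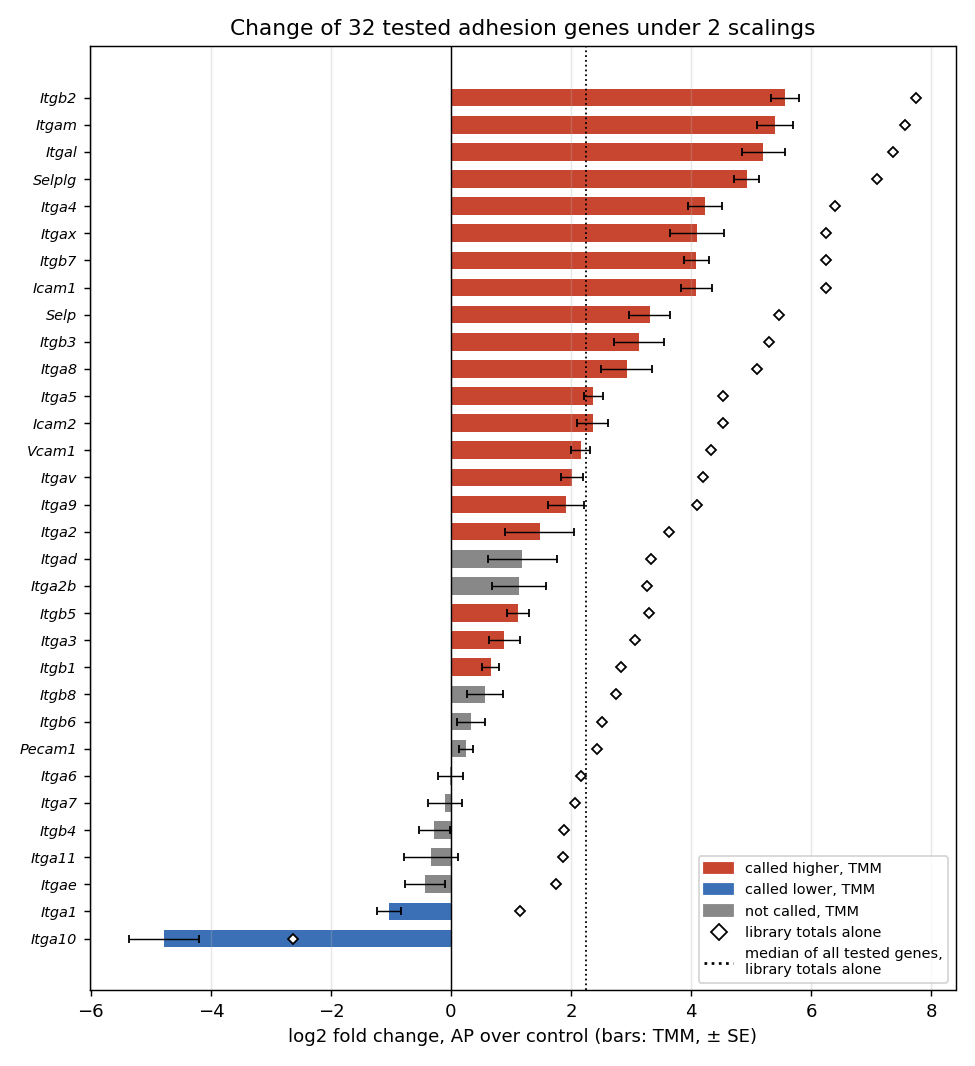
Log2 fold change of AP over control for the 32 tested members. Bars show TMM scaling with SE, coloured by call, and open diamonds show library totals alone. Itgb2 at 5.57 is at the top and Itga10 at -4.78 at the bottom. Every diamond except that of Itga10 is above 0, and the dotted line marks the median of all tested genes with library totals, 2.25.

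Among integrins that bind RGD-containing matrix proteins, Itga5, Itga8, Itgav, Itgb3 and Itgb5 rose. Itga5, α5 of the fibronectin receptor, went from 11.3, 8.72 and 12.9 to 56.3, 53.2 and 59.3 normalised CPM (5.16-fold, log2 fold change 2.37 ± 0.158, edgeR adjusted p = 5.37e-06). Itgav, αV, which pairs with several β subunits, went from 26.4, 31.8 and 37.3 to 155, 107 and 123 (4.03-fold, 2.01 ± 0.184, edgeR adjusted p = 2.72e-05). For both, each AP library was well above each control. Itga8, a subunit of mesenchymal cells, rose 7.64-fold from 13 reads over the 3 controls (2.93 ± 0.425, edgeR adjusted p = 0.000391).

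Of the β partners of αV, Itgb3 changed most. It had 3, 11 and 3 reads in controls and 289, 245 and 241 in AP and rose 8.83-fold (3.14 ± 0.417, edgeR adjusted p = 0.000234), or by 3.99 on the log2 scale without control replicate 2. Itga2b, the platelet partner of β3, read 0.372, 0.379 and 0.321 normalised CPM in controls and 0.74, 0.796 and 0.853 in AP and was not called (1.13 ± 0.446, edgeR adjusted p = 0.0518). Itgb5 rose 2.17-fold (1.12 ± 0.181, edgeR adjusted p = 0.000735). Itgb6, a subunit of epithelia that activates latent TGF-β, read 12.5, 11.9 and 13.5 in controls and 20, 10.8 and 17.2 in AP. With AP replicate 2 below every control, it was not called (0.34 ± 0.234, edgeR adjusted p = 0.229). Itgb8, which also activates TGF-β, was not called either (0.56 ± 0.3, edgeR adjusted p = 0.135). Leaving out AP replicate 2 brought Itgb6 to 0.55 (adjusted p = 0.0262), and leaving out AP replicate 3 brought Itgb8 to 0.75 (adjusted p = 0.0443), in the edgeR test.

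Itgb1, the β1 subunit shared by most matrix receptors, differed little in size but steadily, at 276, 264 and 257 normalised CPM in controls and 407, 394 and 456 in AP (1.58-fold, log2 fold change 0.66 ± 0.137, edgeR adjusted p = 0.00294). Its collagen-binding partners moved in different directions. Itga10, α10, known from cartilage, read 3.23, 4.04 and 2.57 in controls and 0.123, 0.0249 and 0.206 in AP, which were 5, 1 and 7 reads. It fell 27.4-fold (-4.78 ± 0.579, edgeR adjusted p = 0.000139, and -5.37 without AP replicate 3), the only member lower in AP with either scaling. Itga1, α1 of stromal and vascular cells, read 12.2, 10.5 and 9.32 in controls and 4.61, 6.05 and 5.03 in AP and fell 2.04-fold (-1.03 ± 0.205, edgeR adjusted p = 0.00233). With library totals Itga1 instead rose by 1.15 on the log2 scale. Pelo, which overlaps Itga1, had 136 to 217 reads in controls and 395 to 459 in AP.

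Itga2, α2 of epithelia and platelets, had 12, 23 and 1 reads in controls and 209, 140 and 155 in AP. It was called higher by a narrow margin (log2 fold change 1.48 ± 0.576, edgeR adjusted p = 0.0498). The call ended without control replicate 1 or 3 or any 1 AP library (adjusted p of 0.0559 to 0.122), and the value was 2.32 without control replicate 2. Itga11, a collagen receptor subunit of fibroblasts, read 11, 4.3 and 7.07 normalised CPM in controls and 6.78, 8.21 and 2.85 in AP, with overlap (-0.33 ± 0.447, edgeR adjusted p = 0.542).

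Of the laminin receptor subunits of epithelia, Itga6 and Itgb4 changed little with TMM scaling. Itga6 read 106, 95.3 and 67 normalised CPM in controls and 87.9, 70.5 and 109 in AP (log2 fold change -0.01 ± 0.209, edgeR adjusted p = 0.979). Itgb4, its hemidesmosome partner, read 46.8, 54.6 and 53.8 in controls and 46.5, 25.3 and 56 in AP (-0.28 ± 0.258, edgeR adjusted p = 0.366). Both sets of libraries overlapped. Itga7, a laminin receptor subunit of muscle, was at -0.1 ± 0.276 (edgeR adjusted p = 0.756). Itga3 read 26.1, 23.1 and 25.4 in controls and 57.1, 27.5 and 53.9 in AP and was called higher (0.89 ± 0.258, edgeR adjusted p = 0.0151), with AP replicate 2 just above the controls. This call ended without control replicate 2 (0.85, adjusted p = 0.0562) or AP replicate 1 (0.71, 0.0551) and with limma-voom (0.82, 0.0653).

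Ratios of counts between genes of the same library do not depend on how libraries are scaled. Of 21 pairs set, 20 had no 0 count, and in 13 of these the AP and control libraries did not overlap, 7 higher and 6 lower in AP. Single tested genes did not overlap between groups in 70.9% of cases in normalised CPM, and no share was computed over other pairs. No pair could pass the two-sided exact permutation test used for these ratios, whose smallest p with n = 3 per group is 0.1, or 0.162 adjusted over the pairs. Itgb2 over Itgb1 rose from 0.00811, 0.0158 and 0.0144 in controls to 0.38, 0.471 and 0.304 in AP, a difference of 4.92 on the log2 scale. Vcam1 over Icam1 went from 6.33, 7.47 and 6.53 to 1.82, 2.49 and 1.34, a difference of -1.86, so Icam1 took a larger part of the pair's reads in each AP library. Icam2 over Pecam1 was 4.15-fold higher in AP. By contrast Pecam1 over Cdh5, both endothelial, was 2.39, 2.56 and 2.01 in controls and 2.53, 1.99 and 2.24 in AP.

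Against Ptprc, the gene of the leukocyte antigen CD45, Itgb2 and Selplg differed less between groups than on their own, by 1.98-fold for Itgb2 and 1.26-fold for Selplg. Itgb2 over Ptprc was 0.18, 0.28 and 0.371 in controls and 0.602, 0.516 and 0.492 in AP, and Selplg over Ptprc was 0.18, 0.169 and 0.161 against 0.22, 0.214 and 0.227. Itgax over Itgam was 2.88-fold lower in AP and Itgad over Itgam 20.5-fold lower, the latter from 1 to 5 control reads of Itgad. The log2 difference of Itgad over Itgam was -4.35, and it was -3.6 without control replicate 1 and -5.11 without control replicate 3. Itga2b over Itgb3 was 5.03-fold lower, with 3 to 11 control reads of Itgb3. Itgam over Itgal overlapped between groups, at 0.552, 0.527 and 3 in controls and 1.22, 1.13 and 0.733 in AP.

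**Figure D3:**
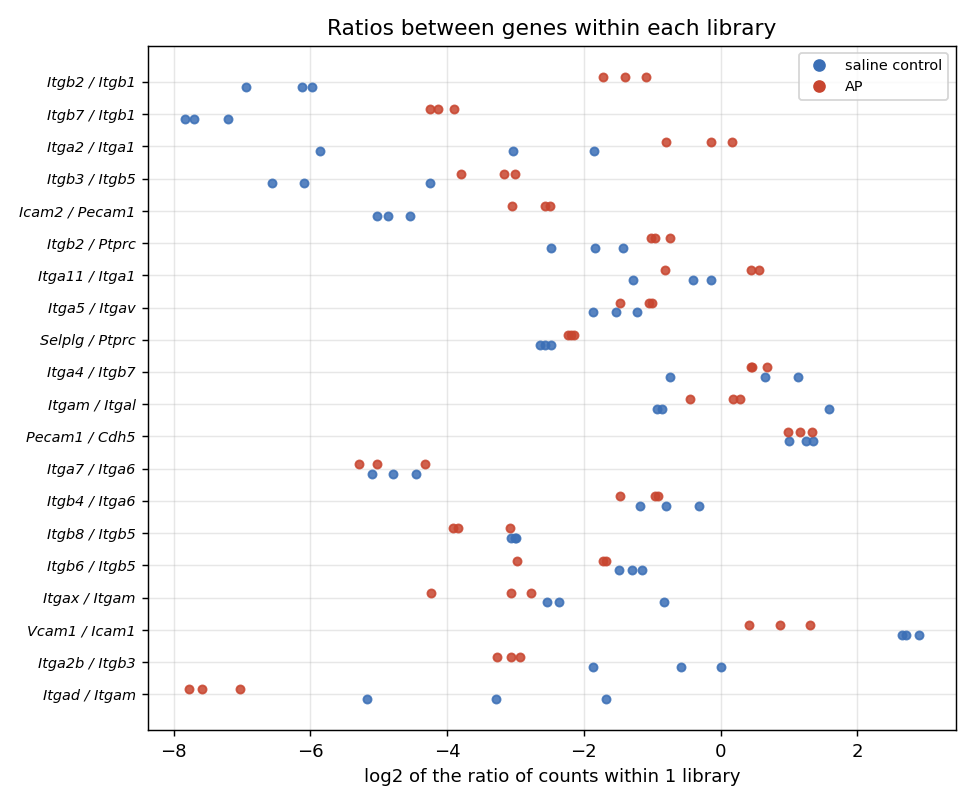
Log2 of the ratio of counts of gene pairs within each library, with controls in blue and AP in red and 1 point per library. AP points of Itgb2 over Itgb1 lie to the right of the control points and those of Vcam1 over Icam1 to the left, while those of Pecam1 over Cdh5 mix.

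Of 92 other genes of the adhesion pathway on 4 lists, 90 were found and 87 were tested, of which 60 rose and 8 fell, with a median log2 fold change of 1.43. These counts and those of each list stand beside 34.1% higher and 30.5% lower among all tested genes, with a median of 0.07. In the selectin system 13 of 16 tested genes rose and 2 fell (median 1.78). Cd44, the hyaluronan receptor that also binds E-selectin, went from 7.45, 7.46 and 6.43 to 241, 214 and 218 normalised CPM (31.4-fold, edgeR adjusted p = 6.84e-07). B4galt1 and St3gal4, enzymes that build selectin ligand glycans, rose 9.99-fold and 3.41-fold. Among junctional and other adhesion genes 6 of 14 rose and 1 fell (median 0.34), so the share that rose was near that of all tested genes. Sirpa, the myeloid receptor for CD47, rose 17.1-fold, Cd226 of T and natural killer cells 8.37-fold and the endothelial gene Esam 3.26-fold. Alcam fell by 0.88 ± 0.165 on the log2 scale and was at 1.3 with library totals.

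Genes that regulate integrin activation or tie integrins to actin rose in 17 of 27 cases and fell in 3 (median 1.31). Parvg, the parvin of blood cells, rose 78.9-fold (log2 fold change 6.3 ± 0.321), Fyb1, an adaptor of T cells and myeloid cells, 22.3-fold and Apbb1ip, which links Rap1 to talin, 20.6-fold. Tln1, the talin that binds β tails, rose 5.1-fold, from 55.2, 61.3 and 58.3 to 302, 335 and 256 normalised CPM. Of 30 tested matrix ligands 24 rose and 2 fell (median 2.27). Tnc, tenascin-C, a ligand of α9 and αV integrins, read 0.372, 2.53 and 2.25 in controls and 217, 308 and 219 in AP (7.2 ± 0.437, edgeR adjusted p = 3.26e-06). Thbs1 rose 22.7-fold, Tgfb1, which αV integrins activate, 14.4-fold and Emilin1 11.8-fold.

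Markers of cell types did not all move in the same direction. Among all tested genes 34.1% were higher and 30.5% lower. All 6 leukocyte markers rose, summing to 185 to 250 normalised CPM in controls and 1200 to 1750 in AP, as did all 9 macrophage markers (186 to 234 and 5320 to 5420). Single genes weigh on these sums. Lcp1 stood at 187, 197 and 144 in controls and rose only 3.1-fold, and Lyz2 stood at 3580, 3670 and 4020 in AP. Of 8 neutrophil markers 5 were tested and rose, with sums of 2.48 to 3.92 and 62.4 to 146. Mpo had 0 or 1 read in any library and Elane at most 7. The 5 T cell markers rose (1.77 to 6.7 and 11.9 to 35.2), as did the 3 tested of 5 B cell markers (0.161 to 0.497 and 2.32 to 5.92). Among platelet markers Gp1bb was at 0 in all libraries, Gp9 and Gp6 had at most 6 reads, and Pf4 rose. Gp1ba had 5, 2 and 4 reads in controls and 7, 5 and 3 in AP. In normalised CPM Gp1ba was lower in AP, at 0.173, 0.124 and 0.0883 against 0.621, 0.253 and 0.643 in controls. Ppbp had 7 reads in AP replicate 3 and 0 in the other libraries. Neither Gp1ba nor Ppbp was tested. Of 7 endothelial markers found, 3 rose, 1 fell and 3 were not called, with sums of 93.1 to 126 and 164 to 188. Tie1 weighed on the AP sum, going from 13.2, 12.1 and 13.2 to 68, 66.2 and 51.3. Kdr, the marker that fell, went from 47.9, 30.8 and 34.9 to 22.5, 29.5 and 23.5. Fibroblast markers rose in 7 of 8 cases (491 to 678 and 2100 to 4810), duct markers in 3 of 5 (110 to 176 and 712 to 1010, with 1 lower), and all 4 mesothelial markers rose (18.2 to 52.8 and 117 to 166). All 6 acinar markers found fell (830000 to 849000 and 2940 to 24900). The part of these cell types in the changes of the adhesion genes was not tested.

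**Figure D4:**
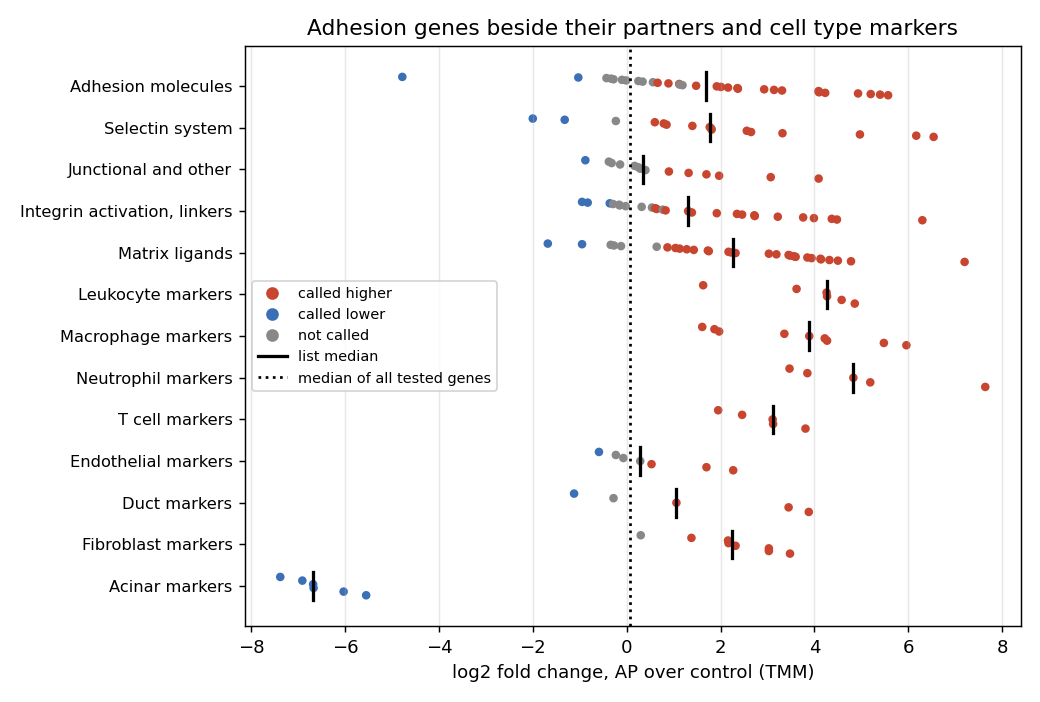
Log2 fold change of each tested gene of the adhesion molecules, of 4 lists of partner genes and of cell type markers, coloured by call, with the list median as a black bar and the median of all tested genes, 0.07, as a dotted line. Leukocyte, macrophage and neutrophil markers lie to the right, acinar markers to the left, and endothelial markers around the dotted line with a median of 0.29.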

How the data were processed

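Poly(A) RNA of 6 pancreas samples was sequenced in 150 bp reads, per the labels' protocols. The authors deposited raw counts of reads for each gene and worked with FastQC, STAR, featureCounts, DESeq2 and build mRatBN7.2, per the submitters' processing notes. The sources used here give no versions, annotation release, strand setting or rule for multi-mapping reads. Of 23096 rows, 3110 had no gene name (1.41% to 7.69% of a library's counts) and stayed out. Rows of 185 symbols found on several rows were summed.

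The 3 AP and 3 control samples were compared with edgeR 4.0.16 in R 4.3.3 (quasi-likelihood test, TMM, default filter, Benjamini-Hochberg adjustment over 13240 genes, called at 0.05). SE was the size of the log2 fold change divided by √F. The fit was checked on simulated counts. Alternatives used DESeq2 1.42.0, limma 3.58.1, other scalings and filters, the replicate block and each library left out. Ratios took a pseudocount of 0.5. The members and lists were chosen with earlier results of these data known. All members and markers could be named, and the 4 genes of lowest p from each partner list, of which 1 is not reported here. Symbols matched RefSeq tables of GRCr8 for all 33 members and for 22 promoters. Promoters of Icam2, Itga6, Itga7, Itgad, Itgal, Itgb2, Itgb3, Itgb4, Pecam1, Selp and Selplg were not used here. No pair of libraries in a group was alike within sampling noise (chi-square of 40.6 to 152 per gene). Separate animals are not stated, and p-values then measure only the spread among these samples, which may be technical. The floor of 3 counts used for Sele covers counting error only, whereas the SE also takes in the spread among samples.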

Additional observations from a re-analysis of the deposited data

How the results depend on the processing

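Of the 20 members called higher, 18 kept direction and call in every alternative run for them, and the exceptions were Itga2 and Itga3. With library totals alone 31 members were higher and 1 lower, and of the partner genes 84 were higher and 0 lower. There Itga1 (1.15), Itga6 (2.16), Itga7 (2.07), Itga11 (1.87), Itgae (1.75), Itgb4 (1.89), Alcam (1.3), Fermt2 (1.24) and Parva (2.03) turned positive, since that scaling moves the median of all genes by 2.18. A filter of 50 counts in 3 samples left 1 member lower, as Itga10 was no longer tested. Without a filter all 33 members were tested, Sele among them, 21 were higher, and Itga6 was at 0.05. Sele was also tested when any 1 control library or AP replicate 1 was left out. With 1 library left out, members higher numbered 19 to 20 and partner genes lower 5 to 7, Itga6 ran from -0.19 to 0.14, Itga7 from -0.24 to 0.05, Itga11 from -0.64 to 0.08 and Parva from -0.37 to 0.23. The log2 difference of 4 ratios crossed 0: Itgam over Itgal (-0.35 to 0.88), Itga4 over Itgb7 (-0.33 to 0.57), Itga7 over Itga6 (-0.4 to 0.08) and Pecam1 over Cdh5 (-0.14 to 0.04). Samples sharing a replicate number did not deviate together (correlations of -0.03, 0.03 and -0.11), so the number was not taken as a pairing. With the replicate block 19 members were higher and 2 lower, Itga2 was not called (1.62, adjusted p = 0.0611), and 60 partner genes were higher and 6 lower. DESeq2 size factors also ended the call of Itga2 (1.47, adjusted p = 0.0502). Depth limits Sele, Itgad, Itga2b and Itga10, which had few reads in a group. The sizes of the rises of Selp, Itga8, Itgb3 and Itgax also rest on few control reads (10, 13, 17 and 21 in all).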

Other observations

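The genes in this section were chosen after their values were seen. Lama3 and Lamb3 encode chains of laminin in the epithelial basement membrane, where α6β4 and α3β1 integrins bind, and both rose in AP, Lama3 from 2.61, 1.01 and 1.61 to 41.5, 22.1 and 29.1 normalised CPM (log2 fold change 4.14 ± 0.361) and Lamb3 by 4.78 ± 0.404. The receptor genes Itga6 and Itgb4 were not called with TMM scaling, at -0.01 ± 0.209 and -0.28 ± 0.258. Itga3 and Itgb1, the genes of α3β1, were called higher, at 0.89 ± 0.258 and 0.66 ± 0.137, though Itga3 not in every alternative. In Lama3 and Lamb3, as in Itga3 and Itgb4, AP replicate 2 was the lowest of the AP libraries.

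Relatives within the integrin activation machinery differed in direction. Fermt3, the kindlin of blood cells, rose 6.58-fold and Fermt1, the kindlin of epithelia, 15.9-fold, whereas Fermt2, the widely expressed kindlin, read 77.8, 70 and 72 normalised CPM in controls and 43.7, 33.3 and 37.2 in AP (-0.95 ± 0.129). Parvb rose by 3.76 ± 0.239, and the broadly expressed Parva was at -0.15 ± 0.252 and not called. In plain CPM Fermt2 was 2.36-fold higher in AP and Parva 4.09-fold. Neutrophil genes differed between AP libraries: Csf3r had 3125, 1763 and 1530 reads and S100a8 700, 181 and 447 in AP replicates 1 to 3.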
